A study of Bos taurus with 54 samples.

Results

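The immediate early AP-1 and EGR genes are a set of 10 genes taken by symbol from the 32637 genes counted in each library, namely FOS, FOSB, FOSL2, JUN, JUNB, JUND, EGR1, ATF3, IER2 and NR4A1. The data come from whole blood RNA of 15 Holstein male calves housed in climate-controlled rooms. The thermoneutral control samples were drawn in the morning before heat exposure, and the heat stress samples in the evening, right after 12 h of heat, so heat and hour of day cannot be told apart. Red blood cells were lysed and the remaining cells pelleted before RNA was extracted, so the libraries represent mainly the nucleated cells and platelets of the pellet. The 29 RNA samples gave 54 libraries, 27 of a Takara kit (SMART-Seq v4 3′ DE) and 27 of a Lexogen kit (QuantSeq 3′), both of which read the 3′ ends of polyadenylated RNA. The labels put animal 20 under heat stress, other sources of the study disagree, and its 2 libraries were left out, which left 13 control and 13 heat stress libraries per kit, with 12 animals sampled at both times in each.

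Immediate early genes are switched on by kinase signalling within minutes of a stimulus, without new protein synthesis, and most of their transcripts are short-lived. FOS and JUN family proteins, which carry a basic leucine zipper, pair to form the transcription factor AP-1. JUN proteins can pair with each other, whereas FOS proteins need a JUN partner, and ATF3 can pair with JUN proteins. EGR1 is a zinc finger transcription factor, and NR4A1 is an orphan nuclear receptor that is induced in activated lymphocytes. In blood these genes respond to cytokines, adhesion, stress hormones and handling of the cells.

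All values below are from reads counted per gene. Levels are given as CPM, the count of a gene divided by all reads on genes and scaled to 1000000 reads, and changes as log2 fold changes of heat stress over control with their standard error (SE), from edgeR's quasi-likelihood test of time after TMM scaling, which corrects for the makeup of each library. P-values were adjusted by the Benjamini-Hochberg method over all 12620 genes tested in Takara and 11108 in Lexogen, and a gene was called at an adjusted p under 0.05. Reads on genes ranged from 5140595 to 20699030 per Takara library and from 4516761 to 58521751 per Lexogen library, where the next deepest held 15607291. The deepest Lexogen library was that of animal 15 after heat stress. The median SE over all genes was 0.18 in Takara and 0.42 in Lexogen.

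In Takara libraries, 4 of the 10 genes were up-regulated after heat stress (FOSL2, JUN, JUNB and ATF3), 1 was down-regulated (JUND), and FOS, FOSB, EGR1, IER2 and NR4A1 did not pass the test. Over all genes tested, 18.4% were called higher and 10.5% lower, so the count of members called higher was above the rate of all genes and that of members called lower was near it. The members were chosen with earlier results of these data known, so these counts only describe the set and do not test it. The median log2 fold change was 0.19 over the 10 genes and -0.05 over all genes. Scaled by library totals in place of TMM, which moved the median of all genes to -0.27, FOSL2, JUN and JUND kept their calls. Their log2 fold changes were then 1.25, 0.52 and -1.23. JUNB and ATF3 lost their calls, and all genes were called higher in 1303 and lower in 2185 cases, against 2325 and 1321 with TMM. In Lexogen libraries, 7 of the 10 genes passed the filter on low counts and 2 of these were up-regulated, FOSL2 and JUN, where 5.09% of all genes tested were called higher and 0.459% lower. The median log2 fold change in Lexogen was 0.12 over the 7 genes tested and -0.08 over all genes. With animal 20 added as heat stress, as labelled, 5 members in Takara and 2 in Lexogen were called, and with it added as control 0 were called in either kit by edgeR, with 2 and 1 members at an unadjusted p under 0.05.

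FOSL2 (chromosome 11, 71337128 to 71360069, ARS-UCD2.0) encodes FRA-2, a FOS family protein that, unlike FOS, lacks a strong activation domain. Its Takara level ranged from 27.8 to 85.3 CPM in the control libraries, with a median of 57.1, and from 49.9 to 247 CPM after heat stress, with a median of 126. The groups overlapped little, since 11 of the 13 heat stress libraries lay above every control library. The log2 fold change was 1.62 (SE 0.26, edgeR adjusted p = 0.000309), a fold of 3.08. FOSL2 was higher after heat stress in all 12 animals with both times, which 0.547% of all Takara genes tested also were. The rise was far from even, from 44.8 to 49.9 CPM in animal 3 and from 38.7 to 247 CPM in animal 18. In this bulk RNA, fewer or more cells of a type and less or more RNA per cell cannot be told apart.

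FOSL2 moved in the same way in Lexogen libraries. Control libraries ranged from 39.8 to 109 CPM with a median of 55.4, and heat stress libraries from 46.3 to 390.02 CPM with a median of 147. Here 9 of 13 heat stress libraries lay above every control library, and FOSL2 was higher in 10 of 12 animals. The log2 fold change was 1.32 (SE 0.28, edgeR adjusted p = 0.00369). With the animal as a block, the call was kept in Takara (log2 fold change 1.42, edgeR adjusted p = 0.00863) and lost in Lexogen (1.09, edgeR adjusted p = 0.108). That model, which held only the 12 animals with both times in each kit, called 25% of all Takara genes tested and 0.568% of all Lexogen genes tested.

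JUN (chromosome 3, 87265962 to 87268009) encodes c-Jun, the main activating partner in AP-1. Takara control libraries ranged from 122 to 290.4 CPM with a median of 183, and heat stress libraries from 109.96 to 377 CPM with a median of 278. The ranges overlapped more than for FOSL2, with 5 heat stress libraries above and 1 below every control library. JUN was higher in 11 of 12 animals, and its log2 fold change was 0.84 (SE 0.19, edgeR adjusted p = 0.00231). The exception was animal 3, in which JUN was lower after heat stress in both kits.

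In Lexogen libraries, JUN had a median of 154 CPM (113.02 to 277) in the control and of 215 CPM (116.5 to 587) after heat stress. Again 11 of 12 animals had a higher level, and the log2 fold change was 0.73 (SE 0.22, edgeR adjusted p = 0.0443). This call was close to the threshold. It was lost with the animal as a block (0.62, edgeR adjusted p = 0.159), without the library of animal 15 (0.68, edgeR adjusted p = 0.0864), and in 10 of the 14 fits that left out 1 animal, in which the adjusted p ranged from 0.0193 to 0.150. The block fit also left out the library of animal 15, so those losses are not separate.

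JUNB (chromosome 7, 12736074 to 12737893) encodes a weaker activator than c-Jun that can hold back its activity. Its Takara level had a median of 70.2 CPM (55.4 to 153) in the control and of 103 CPM (58.99 to 169.6) after heat stress. The ranges overlapped almost fully, with 1 heat stress library above every control library. The log2 fold change was 0.68 (SE 0.18, edgeR adjusted p = 0.00591), and JUNB was higher in 9 of 12 animals by CPM and in 11 of 12 after TMM scaling. In Lexogen libraries the medians were 78.9 CPM (42.1 to 149.7) and 117.96 CPM (67.1 to 313.1). The log2 fold change there had the same size, 0.68 (SE 0.25), but did not pass the test (edgeR adjusted p = 0.113). With library totals in place of TMM, the Takara log2 fold change of JUNB was 0.41 (edgeR adjusted p = 0.0530).

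JUND (chromosome 7, 4912209 to 4913961) encodes the JUN protein that resting cells hold constantly, and it was the only member called lower. Takara control libraries held 2.53 to 9.12 CPM with a median of 4.89, and heat stress libraries 0.986 to 4.38 CPM with a median of 1.97. Of the 13 heat stress libraries, 9 lay below every control library. JUND fell in all 12 animals, as 1.39% of all Takara genes tested did, and had a log2 fold change of -1.02 (SE 0.22, edgeR adjusted p = 0.00144). Behind these values stand only 9 to 79 reads per library. The annotated span of JUND overlaps that of IQCN, a protein-coding gene (chromosome 7, 4913340 to 4939184), and with unstranded counting reads of overlapping genes cannot be told apart with certainty. On the sense counts alone, 713 reads over the 26 Takara libraries, the log2 fold change was -1.07 (edgeR adjusted p = 0.00215). In Lexogen libraries JUND was at 0 in 10 of 26 libraries and was not tested. A library at 0 allows a level of up to 0.0513 to 0.664 CPM there, and up to 0.145 to 0.584 CPM in Takara, for counting error only.

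ATF3 (chromosome 16, 70924499 to 70937427) encodes a stress-induced zipper protein that often acts as a repressor. Its Takara level had a median of 3.12 CPM (0.726 to 7.49) in the control and of 3.79 CPM (1.01 to 10.7) after heat stress. Only 2 heat stress libraries lay above every control library, and 7 of 12 animals had a higher level. The log2 fold change of 1.03 (SE 0.36, edgeR adjusted p = 0.0333) was lost with the animal as a block (0.72, edgeR adjusted p = 0.129). It was also lost without animal 15, 18, 23, 36 or 40, with the adjusted p between 0.0176 and 0.117 over the 14 fits that left out 1 animal. The block fit also left out the library of animal 23, so the losses with the block and without animal 23 are not separate. In Lexogen libraries the log2 fold change was 0.08 (SE 0.64, edgeR adjusted p = 0.976).

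**Figure D1:**
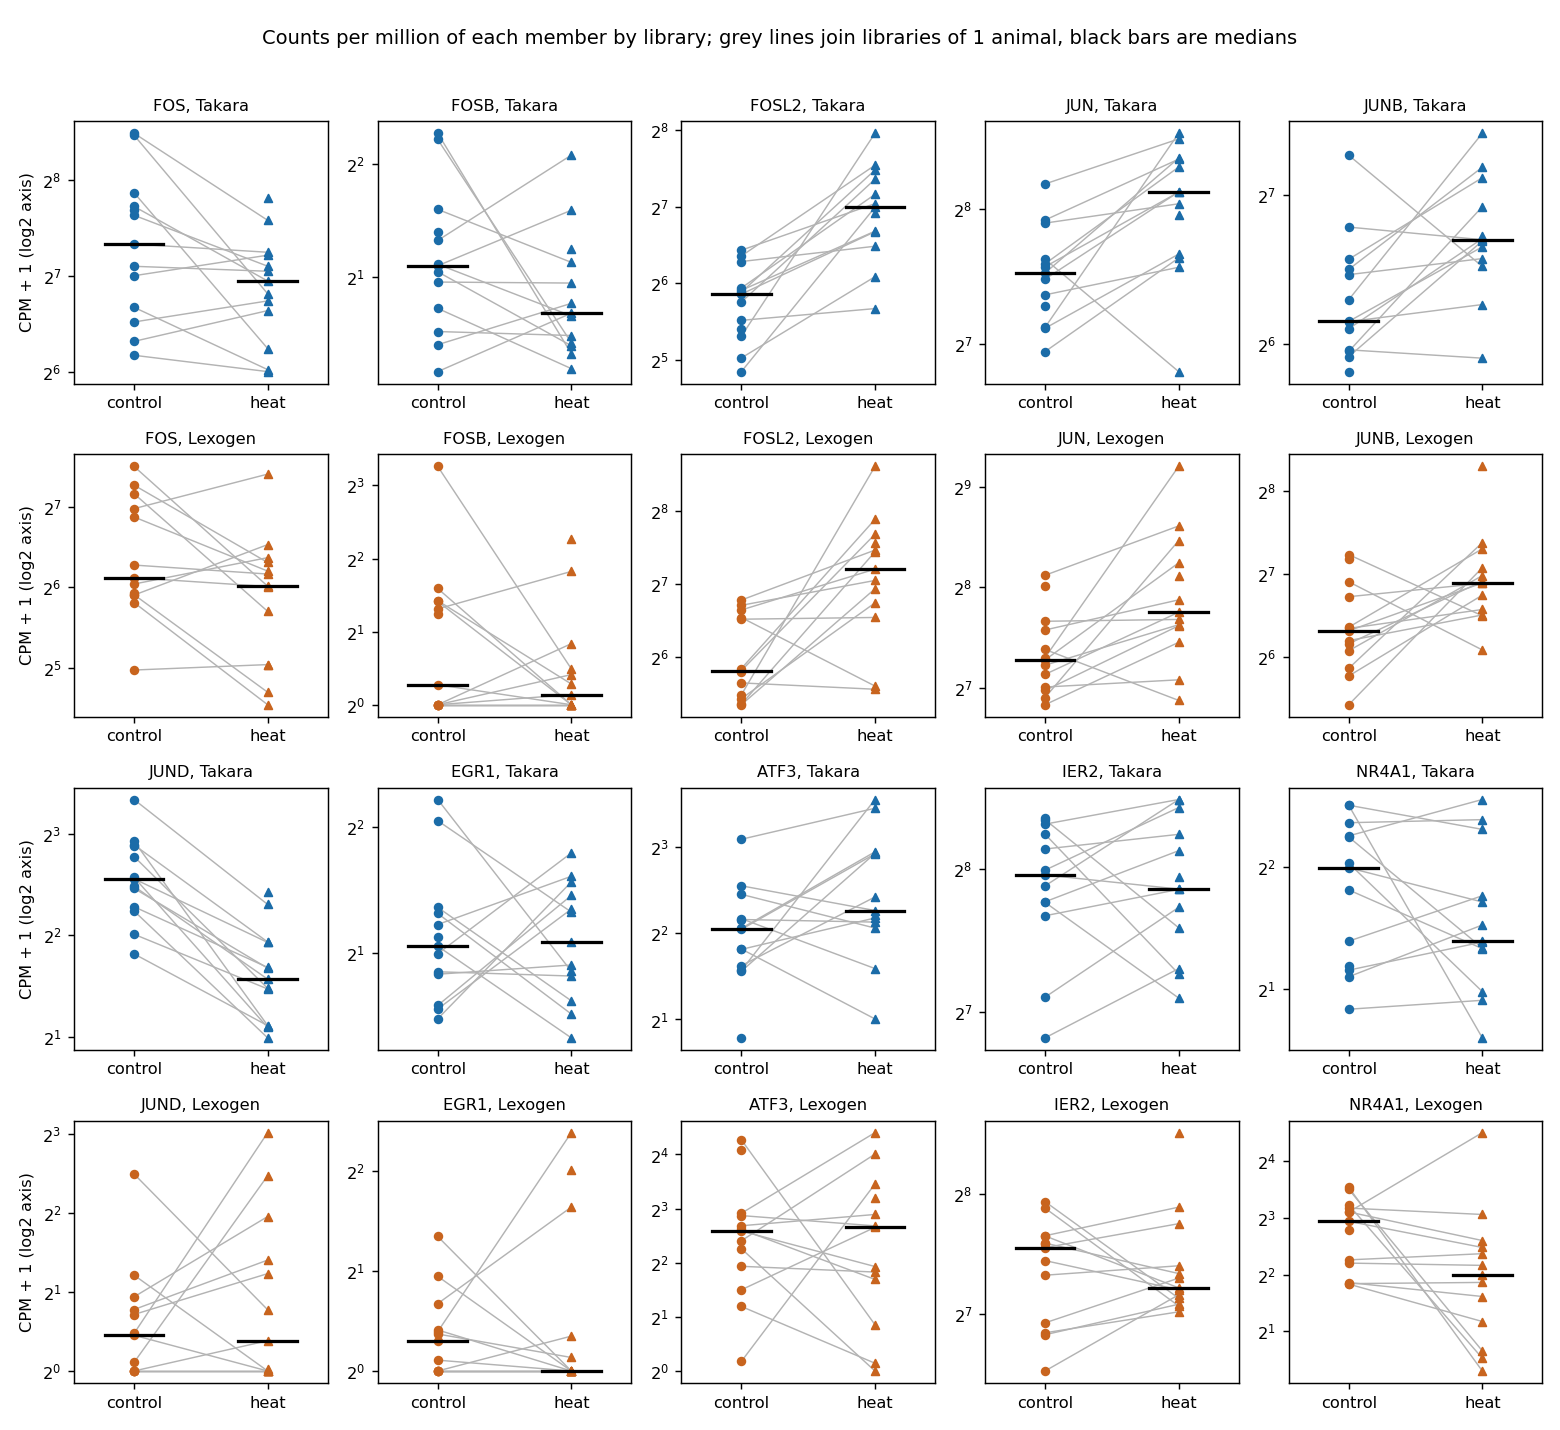
Level of each gene in every library used, as CPM plus 1 on a log2 axis, with blue for Takara and orange for Lexogen, circles for thermoneutral control and triangles for heat stress. Grey lines join the libraries of 1 animal and black bars are medians of 13 libraries. The lines of FOSL2 rise and those of JUND fall in all 12 Takara animals, whereas the lines of FOS, EGR1 and NR4A1 cross.

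FOS (chromosome 10, 86488949 to 86492375), the founding member of the set, did not pass the test in either kit. Takara libraries held a median of 159.9 CPM (70.97 to 358) in the control and of 122 CPM (62.95 to 223) after heat stress. FOS was lower in 9 of 12 animals, and the log2 fold change was -0.21 (SE 0.25, edgeR adjusted p = 0.540). In Lexogen libraries the medians were 68.5 CPM (30.5 to 179.6) and 63.6 CPM (22.4 to 168), with a log2 fold change of -0.39 (SE 0.28, edgeR adjusted p = 0.539). FOS was therefore abundant at both times, and the spread between animals was wider than the difference between times. No correlation with FOSL2 was visible over the 26 Takara libraries (Pearson r = 0.02), a description across libraries of both times.

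IER2 (chromosome 7, 12433854 to 12435630), an early response gene whose protein acts on transcription, was abundant as well. Its Takara medians were 248 CPM (112 to 328) and 231 CPM (136 to 358), and its log2 fold change was 0.24 (SE 0.13, edgeR adjusted p = 0.181). The medians and the fitted change differ in sign, and the mean CPM were close, at 244.2 and 245.9. In Lexogen libraries the medians were 187 CPM (91.1 to 244) and 148 CPM (129 to 364), and the log2 fold change was 0.12 (SE 0.19, edgeR adjusted p = 0.830).

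The remaining genes were low. FOSB (chromosome 18, 53074358 to 53081311), a FOS paralogue, had Takara medians of 1.15 CPM (0.124 to 3.83) and 0.607 CPM (0.145 to 3.22), with a log2 fold change of -0.47 (SE 0.44, edgeR adjusted p = 0.437). EGR1 (chromosome 7, 49826725 to 49829568) had Takara medians of 1.08 CPM (0.3904 to 3.66) and 1.13 CPM (0.252 to 2.47), with a log2 fold change of 0.14 (SE 0.35, edgeR adjusted p = 0.789). NR4A1 (chromosome 5, 27822914 to 27839673) had Takara medians of 2.98 CPM (0.778 to 4.68) and 1.63 CPM (0.510 to 4.87), with a log2 fold change of -0.17 (SE 0.29, edgeR adjusted p = 0.675). Each of these genes overlapped between the times over most of its range. NR4A1 shares part of its span with the lncRNA LOC132345260. In Lexogen libraries NR4A1 had medians of 6.65 CPM (2.56 to 10.6) and 2.99 CPM (0.234 to 21.5), with a log2 fold change of -0.44 (SE 0.54, edgeR adjusted p = 0.766). FOSB was at 0 in 12 and EGR1 in 13 of 26 Lexogen libraries, and neither passed the filter there.

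**Figure D2:**
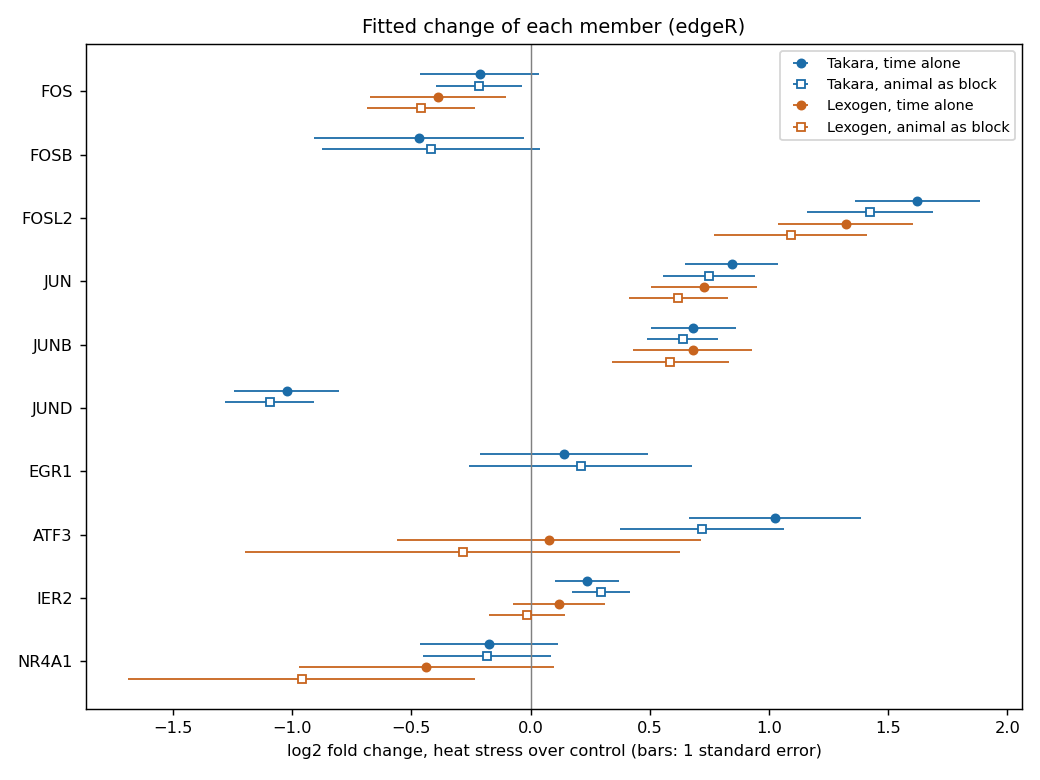
Fitted log2 fold change of heat stress over control for each gene, with bars of 1 SE, for Takara (blue) and Lexogen (orange), with time alone (filled circles) and with the animal as a block (open squares). FOSL2 lies farthest to the right in Takara at 1.62 and JUND farthest to the left at -1.02. FOSB, JUND and EGR1 have no Lexogen value because they did not pass the filter.

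The ratio of FOSL2 to FOS transcripts was higher after heat stress. The ratios given here were chosen after their values were seen and are given without a test. The ratio of FOSL2 to FOS counts had a Takara median of 0.354 (0.162 to 0.631) in the control and of 0.932 (0.535 to 2.55) after heat stress, and it was higher after heat stress in all 12 animals. In Lexogen libraries the median ratio went from 0.722 to 1.798, and was higher in 10 of 12 animals. The ratio of JUN to JUND counts in Takara went from a median of 40.6 (17.9 to 64.7) to 157 (38.9 to 335), and was again higher in all 12 animals. A ratio within a library does not depend on how libraries are scaled, but its level depends on how well each gene was captured, so only its change is described.

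FOSL2, JUN and JUNB tended to be high in the same libraries. Over the 26 Takara libraries, log2 CPM of FOSL2 and JUN had a Pearson r of 0.71, JUN and JUNB of 0.63, FOSL2 and JUNB of 0.45, FOSL2 and ATF3 of 0.66, and FOSL2 and JUND of -0.81. In Lexogen libraries these values were 0.77, 0.58, 0.69, -0.08 and 0.10. The JUN, JUNB and FOSL2 relations thus had the same sign in both kits, and those of ATF3 and JUND did not. JUND had a median of only 3.5 reads per Lexogen library, too few to tell whether its relation with FOSL2 held there. Libraries share animals and times, so these values describe the libraries only.

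Among the genes with the pattern most like FOS over the 26 Takara libraries, out of 10833 genes tested in both kits, were LOC101905499 (r = 0.69, Lexogen 0.62) and SGK1, a kinase induced by glucocorticoids (0.62, Lexogen 0.51). Among those most like JUN were ZDHHC3, a palmitoyltransferase (0.84, Lexogen 0.69), and LOC511937 (0.81, Lexogen 0.72). Those most like EGR1, among 10834 genes, were STK38, a kinase (0.63, Lexogen -0.13), ITGA4, an integrin subunit (0.61, Lexogen -0.38), and ZFY, a zinc finger gene (0.61, Lexogen -0.38). The likeness held its sign in Lexogen libraries for the genes named beside FOS and JUN, whereas all 3 genes most like EGR1 had a negative r there. EGR1 was at 0 in 5 control and 8 heat stress Lexogen libraries, with a median count of 0.5. Its r in Lexogen therefore rests on too few reads to tell whether the likeness held.

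Of the RNA samples used, 24 were sequenced with both kits, so that each kit's view of a gene could be set against the other's. FOS had the higher CPM in Takara in 24 of 24 RNA samples, with a median fold of 1.96, IER2 in 23 and JUND in 22. FOSL2 had the higher CPM in Takara in 4 of 24 only, NR4A1 in 4 and ATF3 in 7. The direction of change was the same in both kits in 10 of the 10 animals with all 4 libraries for JUN, in 9 for FOSL2 and in 8 for IER2. For FOS it was the same in 4, for JUND in 2 and for EGR1 in 1. In some animals Lexogen had 0 reads at both times, which gave no direction and was not counted as the same. These were animals 14, 18 and 32 for JUND and animals 3, 14, 36 and 41 for EGR1. The difference in change between kits was tested within RNA samples. None of the 10 genes was called, where 0% of 13354 genes were called by edgeR, 526 had an unadjusted p under 0.05, and DESeq2 called 2. The difference, Lexogen minus Takara, was -0.03 (SE 0.17) for FOSL2, 0.05 (SE 0.16) for JUN, 0.16 (SE 0.23) for JUNB, and 1.71 (SE 1.40) for JUND. The interval for JUND is too wide to tell whether the kits differ.

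**Figure D3:**
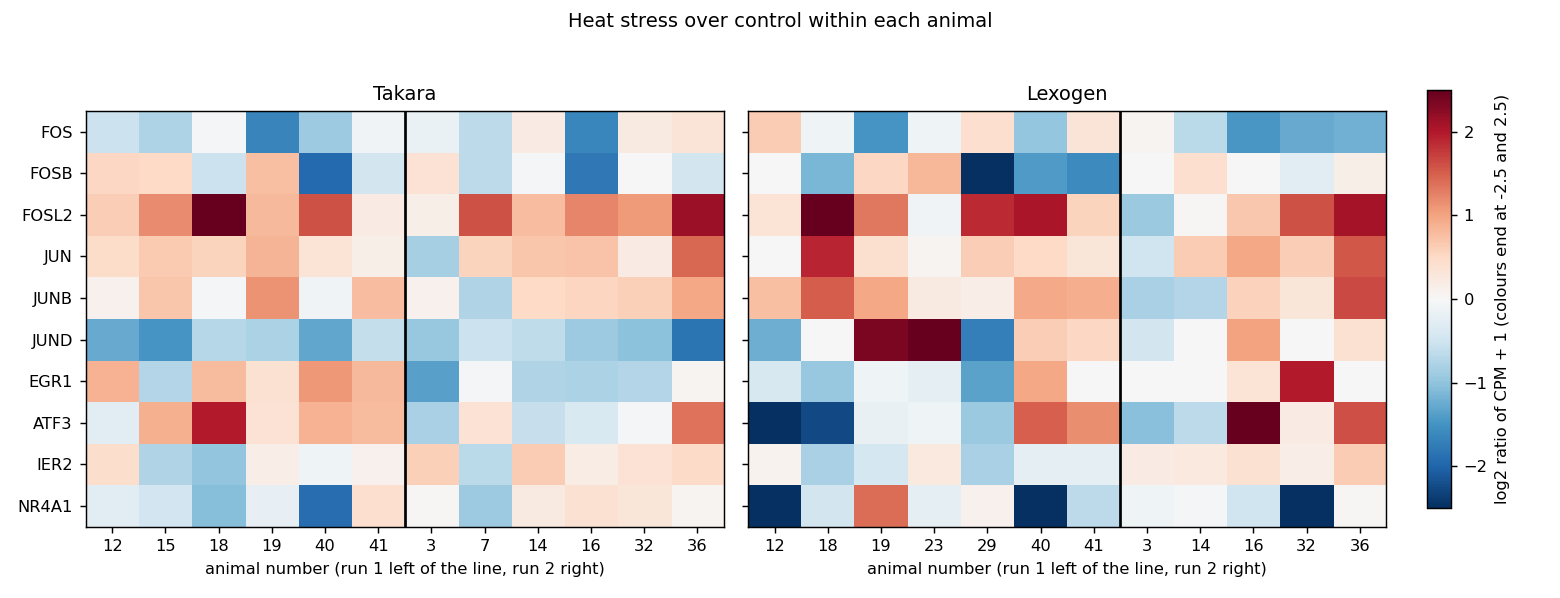
Heat stress over control within each of 12 animals per kit, as the log2 ratio of CPM plus 1, red for higher and blue for lower after heat stress. Animals of the first run of sample numbers stand left of the black line. The Takara row of JUND is blue and that of FOSL2 red throughout, and the Takara row of EGR1 is mostly red on the left and mostly blue on the right.

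The sample numbers on the labels form 2 runs with a gap between them, each holding different animals, and the change was fitted within each as a possible batch. Within run 1, edgeR called 20.6% of Takara genes tested, and within run 2, with fewer animals, 7.35%. FOSL2 was called in both, with log2 fold changes of 1.67 (SE 0.32, edgeR adjusted p = 0.00508) and 1.53 (SE 0.37, edgeR adjusted p = 0.0372). JUN had nearly equal values of 0.84 and 0.86 and was called in run 1 (edgeR adjusted p = 0.0134) but not in run 2 (edgeR adjusted p = 0.115). JUNB was at 0.85 (edgeR adjusted p = 0.0175) and 0.52 (edgeR adjusted p = 0.251), and ATF3 at 1.52 (edgeR adjusted p = 0.0200) and 0.49 (edgeR adjusted p = 0.606). JUND was at -0.92 (edgeR adjusted p = 0.0501) and -1.12 (edgeR adjusted p = 0.0411).

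EGR1 was the only member for which the difference between the runs passed the test in Takara. In run 1 its level was higher in 5 of 6 animals and its log2 fold change was 1.19 (SE 0.40, edgeR adjusted p = 0.0457). In run 2 its level was lower in 5 of 6 animals and it did not pass the filter. The difference, run 2 minus run 1, was -2.25 (SE 0.59, edgeR adjusted p = 0.0380), where 2.58% of all genes tested were called. This call was lost with the animal as a block, and EGR1 rests on 2 to 45 reads per Takara library. In Lexogen libraries, where EGR1 did not pass the filter, its level was higher in 1 and lower in 5 of 7 animals of run 1. In run 2 it was higher there in 2 and lower in 0 of 5 animals. With a median of 0.5 reads per library, the Lexogen levels of EGR1 cannot tell whether the Takara split held. Run and animal cannot be told apart.

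In Lexogen libraries, run 1 called 3.49% of genes tested, among them FOSL2 (log2 fold change 1.67, edgeR adjusted p = 0.0148) and JUNB (1.21, edgeR adjusted p = 0.0232). Run 2 called 0% with edgeR, although 1275 genes had an unadjusted p under 0.05. For JUNB the difference between the runs was -1.36 (SE 0.46, edgeR adjusted p = 0.372), where 0.018% of all genes were called.

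**Figure D4:**
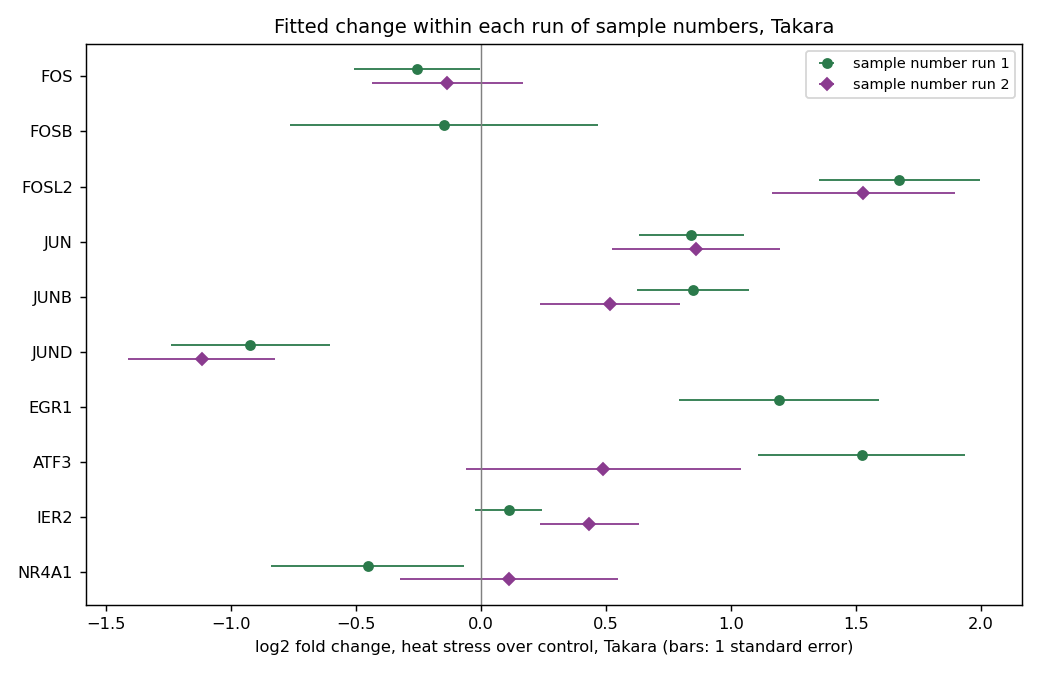
Log2 fold change of heat stress over control in Takara within each run of sample numbers, with bars of 1 SE. The values of FOSL2 (1.67 and 1.53) and JUN (0.84 and 0.86) are close in the runs. EGR1 and FOSB have no value in run 2, where they did not pass the filter.

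The 10 genes were set beside 80 other genes of the pathway, of which 69 were tested in Takara, with 28 called higher and 1 lower, and 65 in Lexogen, with 12 called higher and 1 lower. Over all genes tested, 18.4% were called higher and 10.5% lower in Takara, and 5.09% and 0.459% in Lexogen. Each list count below stands beside these shares, and no list was tested against them. With the animal as a block, 22 of the 29 Takara calls were kept, and 0 of the 13 Lexogen calls, so each Lexogen count of these lists and each Lexogen value given here as called stands for the model of time alone. Other zipper proteins, many of which can pair with AP-1 proteins, were called higher in 7 of 14 genes tested in Takara (median log2 fold change 0.21), 4 of which kept the call with the block, and in 2 of 13 in Lexogen (-0.03). Other immediate early genes were called higher in 9 of 17 in Takara (0.60) and in 3 of 14 in Lexogen (0.20). Of the other EGR and NR4A genes, 1 of 4 was called higher in Takara (0.02) and 0 of 4 in Lexogen with edgeR (-0.19), also at an unadjusted p under 0.05. That gene was EGR2, a paralogue of EGR1, named after its value was seen, with a log2 fold change of 0.80 (SE 0.25, edgeR adjusted p = 0.0186), a call that was lost with the animal as a block (0.65, edgeR adjusted p = 0.0533).

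Upstream of the set, 5 of 17 MAP kinase and SRF genes were called higher and 1 lower in Takara (median 0.19), and 2 of 18 higher in Lexogen (0.08). The one called lower was MRTFB, a coactivator of SRF, at -0.53 (SE 0.16, edgeR adjusted p = 0.0132) in Takara and 0.04 (SE 0.35, edgeR adjusted p = 0.979) in Lexogen. MAP kinase phosphatases, which switch the kinases off again, were called higher in 2 of 6 genes in Takara (0.09), and in 2 of 6 with 1 lower in Lexogen (0.13). DUSP1, which inactivates JNK and p38, went from a median of 158 to 406 CPM, with a log2 fold change of 3.09 (SE 0.55, edgeR adjusted p = 0.000457) and a higher level in 9 of 12 animals. With the animal as a block its Takara log2 fold change was 2.09 (edgeR adjusted p = 0.0252), close to that of MMP9 at 2.14. In Lexogen it was 2.21 (SE 0.39, edgeR adjusted p = 0.00104), or 1.58 with the animal as a block (edgeR adjusted p = 0.0505). The Lexogen gene called lower was DUSP6, an ERK phosphatase, named after its value was seen, at -0.72 (SE 0.20, edgeR adjusted p = 0.0275).

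Genes known as AP-1 or EGR1 targets were called higher in 4 of 11 tested in Takara (median 0.44) and in 3 of 10 in Lexogen (0.29). MMP9, a matrix protease stored in neutrophil granules, went from a Takara median of 4.96 to 21.02 CPM, with a log2 fold change of 2.44 (SE 0.45, edgeR adjusted p = 0.000545). CD44, an adhesion receptor of leukocytes, went from 203 to 545 CPM, with a log2 fold change of 2.17 (SE 0.39, edgeR adjusted p = 0.000484). In Lexogen these were 2.21 (SE 0.67, edgeR adjusted p = 0.0445) and 1.51 (SE 0.31, edgeR adjusted p = 0.00300). Both Lexogen calls were lost with the animal as a block, at an edgeR adjusted p of 0.296 and 0.145.

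**Figure D5:**
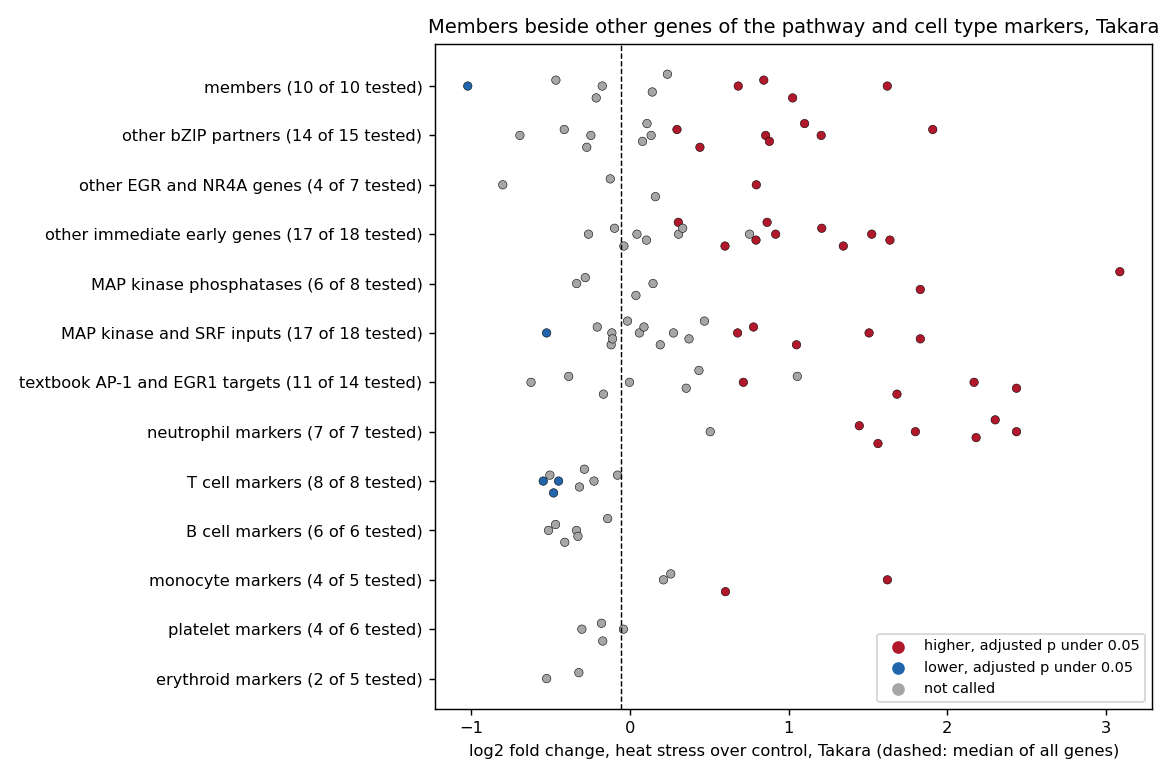
Takara log2 fold change of heat stress over control for each gene tested of the set, of the other lists of the pathway and of the marker lists, with red for genes called higher, blue for genes called lower and grey for genes not called. The dashed line is the median of all genes, -0.05. FOSL2 stands at 1.62 and JUND at -1.02 in the top row, DUSP1 at 3.09 among the phosphatases, and 6 of 7 neutrophil markers are red.

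Markers of blood cell types moved with the times too. Of all genes tested, 18.4% were called higher and 10.5% lower in Takara, and 5.09% and 0.459% in Lexogen. Neutrophil markers were called higher in 6 of 7 genes in Takara and in 4 of 6 tested in Lexogen, with MMP9 counted here as well. With the animal as a block, 6 of the Takara and 0 of the Lexogen calls of neutrophil markers were kept. Their summed level went from a Takara median of 5470 CPM (1731 to 8444) to 15783 CPM (2298 to 27572), and from 2152 CPM (909 to 3825) to 5500 CPM (1393 to 18085) in Lexogen. T cell markers were called lower in 3 of 8 genes in Takara and, with edgeR, in 0 of 8 in Lexogen, also at an unadjusted p under 0.05, and their summed Takara level went from a median of 1352 CPM (1010 to 2155) to 860 CPM (447 to 1748). Monocyte markers were called higher in 2 of 4 genes tested in Takara, 1 of which kept the call with the block, and in 0 of 4 in Lexogen with edgeR, where 2 had an unadjusted p under 0.05. B cell, platelet and erythroid markers had 0 genes called in either kit with edgeR, with 3 of 6 B cell markers lower in Takara and 1 of 2 erythroid markers higher in Lexogen at an unadjusted p under 0.05.

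The animals with the smallest Takara rise of FOSL2 were those in which neutrophil markers fell. In animal 3, FOSL2 changed by 0.15 and the summed neutrophil markers by -1.08 on the log2 scale, and in animal 41 by 0.20 and -0.57. In animal 18, FOSL2 changed by 2.64 and the markers by 2.65, and in animal 36 by 2.14 and 3.78. JUND was lower in animals 3 and 41 as well, by -0.96 and -0.60. JUN changed by -0.83 in animal 3 and by 0.14 in animal 41. In Lexogen libraries the markers fell in the same animals, by -0.28 and -0.74, and there FOSL2 changed by -0.94 in animal 3 and by 0.56 in animal 41, and JUND by -0.45 and 0.52. The kits thus differed in the sign of FOSL2 in animal 3 and of JUND in animal 41. The Takara pattern did not hold in Lexogen, where animals 12, 14 and 23 had smaller FOSL2 changes than animal 41 (0.34, 0.02 and -0.09). Their neutrophil markers rose by 0.20, 0.86 and 0.17. The part of the cell types in the size of these changes was not tested.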

How the data were processed

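The authors trimmed and filtered forward reads with Trimmomatic 0.39 (minimum length 30 bases), used STAR 2.7.10b to place them on the ARS-UCD2.0 genome, and deposited raw counts of uniquely mapped reads per gene for each of 54 libraries, without normalization. The deposited counts come unstranded, sense and antisense. The unstranded counts were used here, and 4 totals of reads not on genes (median 40.1% of reads in Takara and 38.4% in Lexogen) stayed out of library sizes and tests. No molecular identifiers were used, and the floors given for libraries at 0 cover counting error only. The SE come from the fits and so also hold the spread between libraries.

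Groups came from the labels. Genes were kept by filterByExpr of edgeR 4.0.16 with its defaults (minimum count 10, minimum total 15), scaled by TMM and tested in R 4.3.3 with the quasi-likelihood test of time alone, as the study modelled time, within each kit. Interactions of kit and time (RNA sample as a block) and of run and time used the same test. Within-animal log2 ratios used CPM with an offset of 1. Positions came from the RefSeq table of ARS-UCD2.0. No sequences were used here. The members and all gene lists were chosen with earlier results of these data known. Named genes were all members, the 3 largest positive and 3 largest negative Takara changes among called genes of the pathway lists (only 1 negative existed), and the 3 genes most like FOS, JUN and EGR1, of which 2 are not reported here.

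Animal numbers on the labels tie the times to the same animal. Centred gene levels of the same animal had a median correlation of 0.232 in Takara, above 0.1 in 10 of 12 animals, and of 0.029 in Lexogen, above 0.1 in 2 of 12. The animal as a block was an alternative, beside DESeq2 1.42.0, sense counts, library totals, no filter, animal 20 under either time, the deepest library left out, each run alone and each animal left out. The block fits for time held only animals with both times. They left out the control of animal 23 and the heat stress library of animal 29 in Takara. In Lexogen they left out the control of animal 7 and the heat stress library of animal 15, the deepest. Tested on simulated data for time, edgeR recovered 78.4% of 2-fold and 100% of 4-fold changes in Takara (12482 genes) and 27.1% and 62.2% in Lexogen (10724 genes). With the animal as a block it recovered 62.5% of 2-fold changes in Takara and 12.5% in Lexogen. The simulated counts held no effect of animal or RNA sample, so recovery by fits with such a block may differ in the real libraries. For 2-fold differences edgeR recovered 14.4% for kit by time, and 15.2% in Takara and 0% in Lexogen for run by time. An uncalled difference of these kinds therefore does not show equal changes. Of the DESeq2 calls for time, 10.1% in Takara and 20.5% in Lexogen were false.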

Additional observations from a re-analysis of the deposited data

Results flagged for a closer look

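The Takara change of EGR1 after heat stress differed between the runs of sample numbers, by -2.25 on the log2 scale (run 2 minus run 1, SE 0.59, edgeR adjusted p = 0.0380), with a higher level in 5 of 6 animals of run 1 and in 1 of 6 of run 2. In Lexogen libraries, where EGR1 did not pass the filter, its level was higher in 1 of 7 animals of run 1 and in 2 of 5 of run 2. 

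Reads antisense to JUND, which the comparisons do not use on their own, made up 29.3% of its sense and antisense reads in Takara, where 5.06% of the reads on all genes were antisense, and 40.4% in Lexogen, against 5.50% over all genes. In Takara these were 194 reads in control and 101 in heat stress libraries, found in 25 of 26 libraries. In Lexogen they were 6 reads in control and 110 in heat stress libraries, found in 5 of 26. Of the 110 reads, 68 came from animal 23 and 35 from animal 19. Without the library of animal 23, 42 heat stress reads remained and the Lexogen share was 22.3%. The overlap of JUND with IQCN lies within its span, and the part of IQCN in these reads was not tested.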

How the results depend on the processing

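In Takara 5 members were called, and the count stayed at 5 with sense counts, DESeq2, DESeq2 size factors, no filter, animal 20 as heat stress and within run 1. It was 3 with library totals, 2 within run 2, 0 with animal 20 as control (edgeR, 0 genes called of all tested, 3804 at an unadjusted p under 0.05), and 4 with the animal as a block, which ended the call of ATF3. It ranged from 4 to 5 when each animal was left out. In Lexogen the count was 2, and it was 1 with library totals or without the deepest library, 0 by edgeR with animal 20 as control, with the animal as a block and within run 2 (1, 3 and 1 members at an unadjusted p under 0.05), and 1 to 3 when each animal was left out. The block changed no other member call for time, and took all called Lexogen genes from 616 to 63. The run by time call of EGR1 in Takara was 1, and 0 with all genes, library totals, animal 20 as control or the block. No member was called for kit by time under any alternative, or for run by time in Lexogen, where edgeR called 0 with 1 member at an unadjusted p under 0.05.

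Members whose small, uncalled change turned sign were EGR1 in Takara, at -0.10 with library totals and -0.076 to 0.43 with each animal left out, and NR4A1 in Takara, at 0.11 within run 2. In Lexogen, ATF3 turned to -0.046 with animal 20 as control, -0.28 with the block and -0.047 within run 1, and ranged from -0.24 to 0.45 with each animal left out. IER2 turned to -0.086 without the deepest library and -0.015 with the block, and ranged from -0.086 to 0.21 with each animal left out. JUNB turned to -0.087 within run 2. The cause of these changes was not tested. FOSB, JUND and EGR1 did not pass the filter in Lexogen, where they had median levels of 0.0506, 0.191 and 0 CPM in the RNA samples of both kits, against 0.938, 3.38 and 1.15 CPM in Takara.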

Other observations

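The libraries of animal 20, left out of the comparisons and labelled heat stress, held the highest Takara level of FOSL2 (333 CPM), JUN (576 CPM) and JUNB (261 CPM) and the lowest of JUND (0.767 CPM) among the 27 Takara libraries. In its Lexogen library, FOSL2 stood at 396, JUN at 678, JUNB at 234 and JUND at 2.20 CPM.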
